A study of Homo sapiens with 18 samples.

Results

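The 10 genes that encode receptors of B-cell migration were followed through 3 chronic lymphocytic leukemia (CLL) cell lines and their response to TLR9 stimulation. The genes were taken by symbol from the table of 56609 gene symbols: the chemokine receptors CCR1, CCR6, CCR7, CCR10, CXCR3, CXCR4 and CXCR5, and the receptors for other ligands S1PR1, GPR183 and P2RY8. All 10 were in the table, 9 had the 10 counts summed over the libraries that were required for testing, and P2RY8 was listed at 0 in every library. HG3, MEC2 and PCL12 are EBV-positive B-cell lines from CLL, of which MEC2 carries mutated and HG3 and PCL12 unmutated IGHV genes. In each line, 3 libraries came from cells given 2.5 μg/ml of CpG-ODN2006, an unmethylated CpG oligonucleotide that activates TLR9, for 4 h, and 3 from unstimulated cells, so that 18 libraries formed 6 groups. Each group is 1 cell line in culture, without the stroma, T cells and chemokine gradients that CLL cells meet in tissue. Nothing in the sources used here says that the 3 samples of a group were separate cultures, so p-values measure the spread between these samples, which may be technical.

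These receptors are G protein-coupled proteins that steer lymphocytes along gradients of chemokines or lipids. CCR7, CXCR4 and CXCR5 answer to chemokines of lymphoid tissue and bone marrow and guide B cells into T zones, stromal niches and follicles. CXCR3, CCR1, CCR6 and CCR10 bind chemokines of inflamed or mucosal sites. S1PR1 draws lymphocytes out of tissue along sphingosine 1-phosphate, GPR183 (EBI2) responds to oxysterols at the borders of the follicle, and P2RY8 couples to Gα13 and holds germinal centre B cells in place. In CLL, CXCR4, CCR7 and CXCR5 are known from the homing of leukemic cells to the niches where they divide.

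The libraries held between 20382943 and 67308932 counts. Values are given as CPM, counts relative to the TMM-scaled library size, a level that can be compared between libraries for 1 gene but not between genes. Where a library held no count of a gene, a level of up to 3 counts remained possible (0.0429 to 0.155 CPM across the libraries), a limit for counting error only. The B-cell markers MS4A1 (589 to 1842 CPM) and CD79A (215 to 997 CPM) were high in every library, and the 11 markers of T cells, NK cells and myeloid cells reached at most 3.35 CPM. PCL12 replicates 2 and 3 stood apart in both treatments: 45 genes expressed in MEC2 and low in PCL12 replicate 1 lay at 29.0% to 31.3% of their MEC2 level in these 4 libraries, and at 2.26% to 2.36% in the 2 libraries of replicate 1, which had been used to choose them. For the named genes, comparisons with PCL12 are therefore also given without these 4 libraries where a call or a direction changed. Mitochondrial counts made up 20.2% of the second unstimulated HG3 library and 19.7% of the second CpG library of MEC2, against 2.82% to 9.28% in the others.

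For 1 of the 10 receptors the table cannot show the level. P2RY8 lies in pseudoautosomal region 1 (chrX:1462581-1537185, minus strand, GRCh38), and its X and Y copies were identical over all 74605 bases in hg38. Of the 15 protein-coding genes of that region in the table, 14 were at 0 in all libraries and the 15 genes together held 1 count, against 103 of the 790 other protein-coding genes of chromosome X at 0. The 0 of P2RY8 thus stood beside zeros of its neighbours and says nothing on whether these cells expressed it.

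The positions of the other receptors on GRCh38 (GENCODE release 44) show where overlapping genes could affect the counts. CCR1 lies at chr3:46201711-46208313 (minus strand), CCR6 at chr6:167111807-167139141 (plus), CCR7 at chr17:40553769-40565472 (minus), CCR10 at chr17:42678889-42683917 (minus), CXCR3 at chrX:71615916-71618511 (minus), CXCR4 at chr2:136114349-136119177 (minus), CXCR5 at chr11:118883892-118897787 (plus), S1PR1 at chr1:101236865-101243713 (plus) and GPR183 at chr13:99294539-99307399 (minus). The last exon of CXCR5 (chr11:118893596-118897787) is crossed on the opposite strand by an exon of BCL9L (chr11:118893875-118899508), a coactivator of Wnt signaling, so that 91.1% of the exonic bases of CXCR5 are shared. CCR10 shares 17.7% of its exonic bases with CNTNAP1 on the opposite strand, and 85.2% of the exonic bases of CCR6 lie in a same-strand readthrough gene (ENSG00000272980). The libraries were stranded, but the strand setting of the counting is not given in the sources used here. Counts of CXCR5 and CCR10 are read with that limit. The overlap of CCR6 is on the same strand, so no strand setting resolves it, and counts of CCR6 carry that limit. CCR1 and GPR183 lie within CCR3 and UBAC2 on the opposite strand and share no exonic base with them.

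CCR1 and CXCR5 were the 2 receptors with a called CpG response in the paired edgeR fit, while paired limma-voom called CXCR5 alone. The stretches ahead of the start sites of both genes are shown for that reason. They were taken from RefSeq (GRCh38.p14), which held windows for 8 of the 10 receptors and none for CCR7 or CCR10. They give the 250 bases upstream of the start, 5′ to 3′ on the gene's strand. Capitals mark a match to TTCNNNGAA, a palindrome of the kind that STAT proteins bind.
CCR1 (chr3:46208314-46208563, minus strand): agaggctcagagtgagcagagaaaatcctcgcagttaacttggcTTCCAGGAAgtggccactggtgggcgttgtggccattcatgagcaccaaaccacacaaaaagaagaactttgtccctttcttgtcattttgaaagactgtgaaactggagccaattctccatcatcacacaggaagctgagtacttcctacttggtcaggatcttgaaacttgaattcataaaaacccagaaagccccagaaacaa
CXCR5 (chr11:118893142-118893391, plus strand): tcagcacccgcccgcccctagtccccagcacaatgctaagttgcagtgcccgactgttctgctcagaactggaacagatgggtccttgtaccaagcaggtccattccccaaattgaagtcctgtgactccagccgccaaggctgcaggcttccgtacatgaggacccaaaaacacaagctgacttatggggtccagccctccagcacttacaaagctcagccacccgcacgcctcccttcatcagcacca
The CXCR5 window precedes the start of a shorter transcript and lies in the intron of the longer one. In CCR1 the match TTCCAGGAA began 206 bases ahead of the start, and CCR6 was the other receptor with a match. The 8 receptors had 13 windows, of which 3 held a match, and 6.57% of 35116 RefSeq promoters held one on either strand. The NF-κB motif (3 guanines, any 3 bases, 2 thymines and 2 cytosines) was searched on both strands because TLR9 activates NF-κB, and no window of the 8 receptors held it, against 5.67% of all promoters. A match is a run of letters only, and its absence from these windows says nothing about binding elsewhere.

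**Figure D1:**
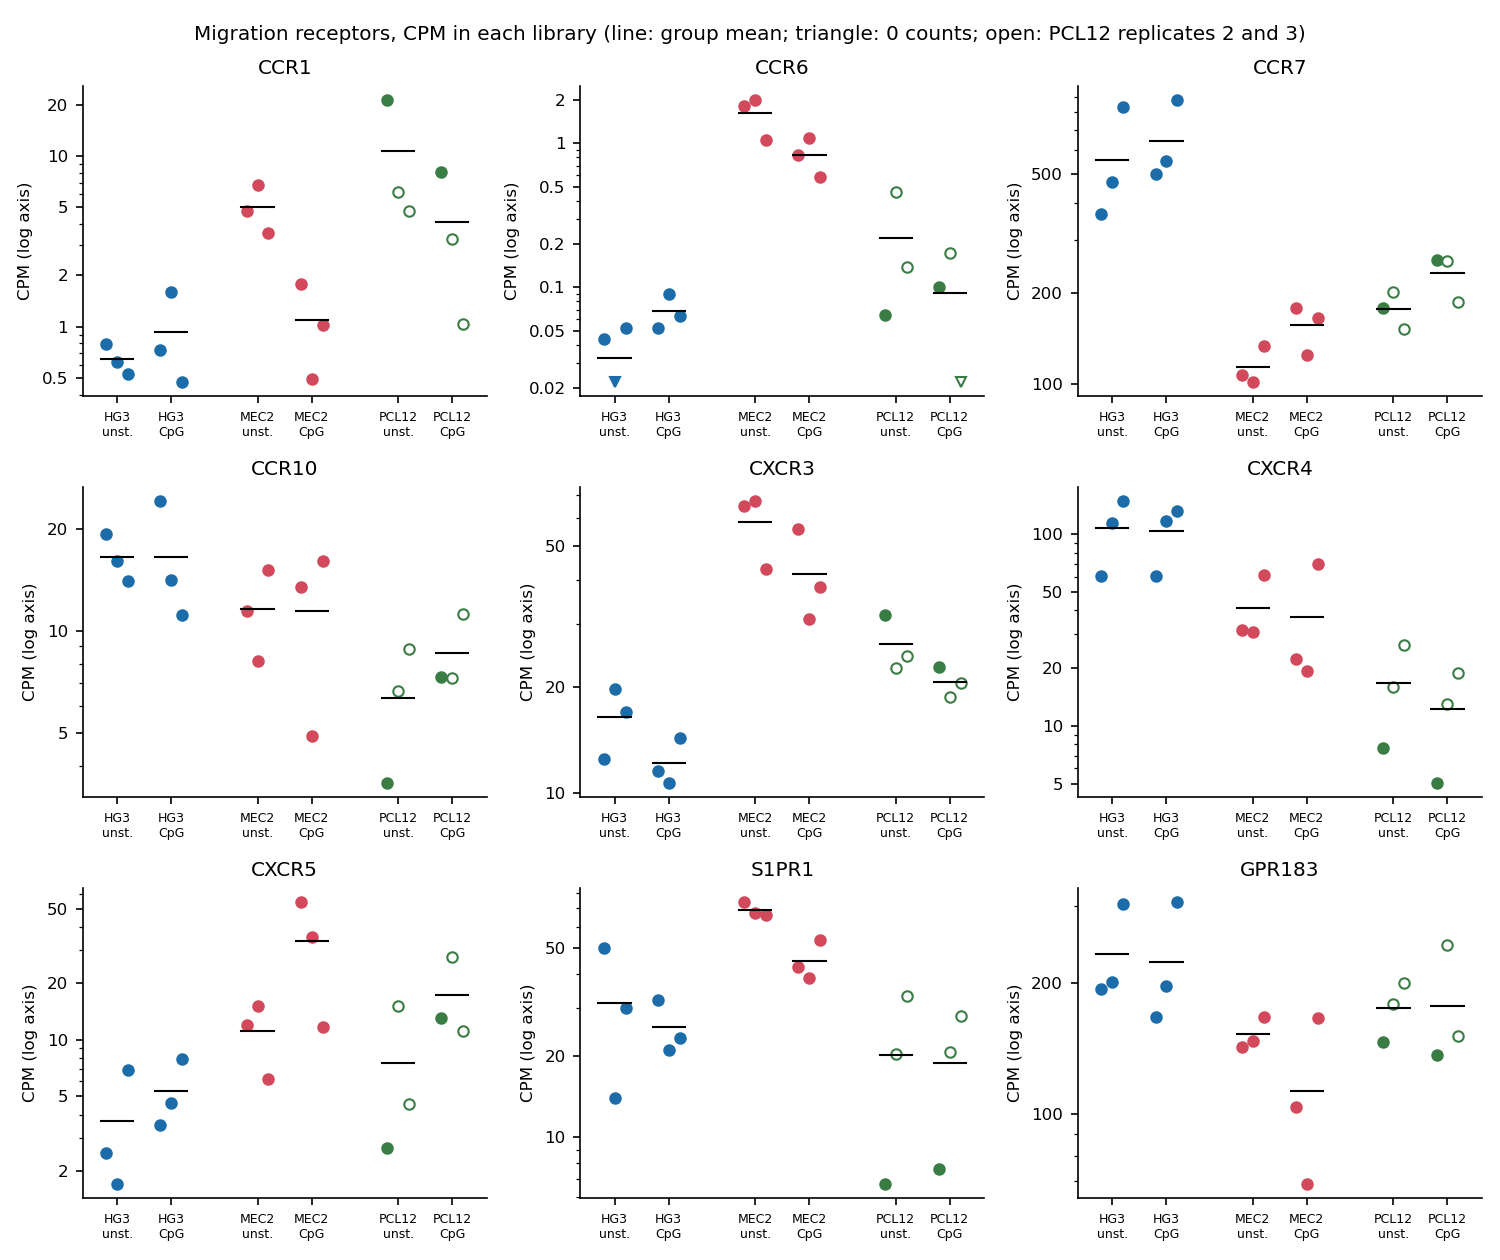
Each panel plots 1 receptor, with CPM on a log axis for every library of the unstimulated (unst.) and CpG groups of HG3, MEC2 and PCL12. Lines are group means of 3 libraries, triangles are libraries with 0 counts, and open symbols are PCL12 replicates 2 and 3. Among unstimulated libraries, those of HG3 were highest for CCR7 and lowest for CCR1 and CXCR3.

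Unstimulated cells of the 3 lines were compared first, to see which receptor repertoire each line carried before stimulation. HG3 had the highest CCR7 and lower CCR1 and CXCR3 than MEC2, MEC2 had the most CCR6 and CXCR3, and PCL12 had the least CXCR4. In these bulk libraries, fewer cells with a transcript and less of it per cell cannot be told apart. Between MEC2 and HG3, 3 receptors were higher in MEC2 (CCR1, CCR6 and CXCR3) and 1 was lower (CCR7) at an adjusted p under 0.05, so 4 of the 9 tested, where 9.78% of all 31872 tested genes were called. Between PCL12 and HG3, CCR1 was higher and CCR7, CCR10 and CXCR4 were lower in PCL12, also 4 of 9, against a background of 9.44%. Between MEC2 and PCL12, CXCR3 alone was called, 1 of 9 where the background was 2.05%. These backgrounds include many genes with few counts. When only genes averaging 1 CPM or more were tested, which leaves out CCR6, 22.4%, 21.2% and 6.04% of genes were called in the same order. The groups did not overlap for 6 receptors between MEC2 and HG3 (22.2% of tested genes), for 6 between PCL12 and HG3 (21.1%, with CCR6 among them, where PCL12 replicate 1 and 2 of the HG3 libraries held 2 counts each and no separation is shown) and for 5 between MEC2 and PCL12 (17.3%). The median Log2FC of the 9 receptors was 1.14 for MEC2 over HG3, -0.41 for PCL12 over HG3 and 0.87 for MEC2 over PCL12, against 0 for all tested genes each time.

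**Figure D2:**
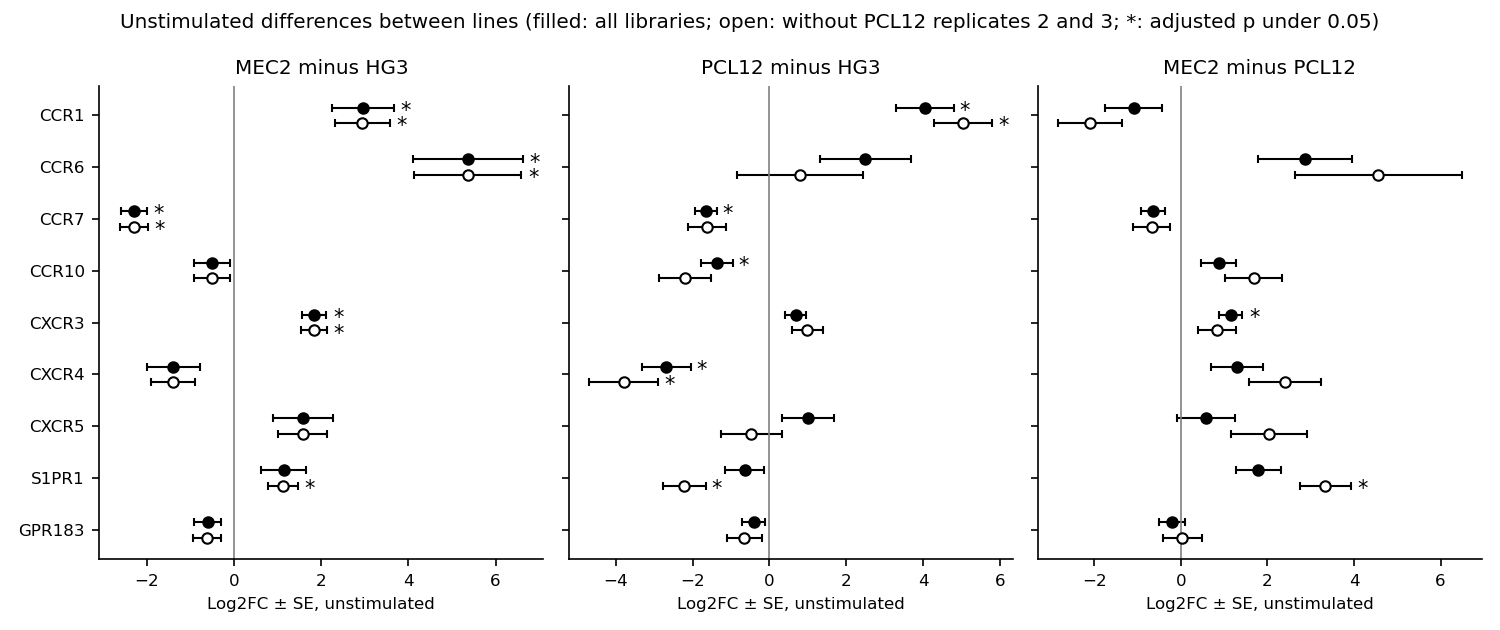
Log2FC with SE of the 9 tested receptors between unstimulated lines, from edgeR with all 18 libraries (filled) and without PCL12 replicates 2 and 3 (open). Asterisks mark an adjusted p under 0.05. Without these libraries S1PR1 was called in all 3 comparisons, while CXCR3 between MEC2 and PCL12 and CCR7 and CCR10 between PCL12 and HG3 were no longer called.

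CCR7, the receptor for CCL19 and CCL21 that brings B cells into lymph nodes, separated HG3 from the other two lines. Its level was 367, 469 and 836 CPM in unstimulated HG3 replicates 1, 2 and 3, against 107, 101 and 133 CPM in MEC2 and 178, 202 and 152 CPM in PCL12. The ranges of the 3 lines did not overlap, with HG3 highest and MEC2 lowest. MEC2 was lower than HG3 with Log2FC -2.29 ± 0.30 (SE, edgeR, 3 libraries a group; adjusted p = 4.4e-06), and PCL12 was lower than HG3 with Log2FC -1.65 ± 0.29 (adjusted p = 0.000249). MEC2 and PCL12 were not called apart (Log2FC -0.64, 95% confidence interval -1.23 to -0.06, adjusted p = 0.385). Without PCL12 replicates 2 and 3, the value between PCL12 and HG3 stayed at -1.63 but the adjusted p was 0.0606.

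CXCR4, the receptor for CXCL12 that retains cells in marrow and stromal niches, had its highest level in HG3 as well. HG3 held 60.8, 115 and 149 CPM, MEC2 31.5, 30.7 and 61.2 CPM and PCL12 7.69, 16.0 and 26.5 CPM. PCL12 lay below both other lines in every library, while 1 MEC2 library reached just above the lowest of HG3. PCL12 was lower than HG3 with Log2FC -2.69 ± 0.64 (adjusted p = 0.0134), and the call was lost when HG3 replicate 3 (adjusted p = 0.0515), PCL12 replicate 1 (0.0507) or PCL12 replicate 2 (0.0566) was left out. MEC2 against HG3 (Log2FC -1.39, adjusted p = 0.198) and MEC2 against PCL12 (Log2FC 1.30, adjusted p = 0.460) were not called by edgeR, while DESeq2 called the first (adjusted p = 0.0395) and edgeR without a filter on low counts both (5.34e-05 and 0.000813). With the replicate number as a block across the lines, which share only the number, the adjusted p values were 0.00159 and 0.00439 for these 2 comparisons and 1.81e-07 for PCL12 against HG3. Without PCL12 replicates 2 and 3, PCL12 against HG3 gave Log2FC -3.79 (adjusted p = 0.0255) and MEC2 against PCL12 2.40 (0.249).

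CXCR5, the CXCL13 receptor of the follicle, was spread widely within the groups. The unstimulated levels were 2.48, 1.70 and 6.89 CPM in HG3, 12.1, 15.2 and 6.21 CPM in MEC2 and 2.66, 15.2 and 4.57 CPM in PCL12. All 3 pairs of lines overlapped and edgeR as reported called none. MEC2 against HG3 had Log2FC 1.58 (95% confidence interval 0.11 to 3.05, adjusted p = 0.195), and was called by DESeq2 (0.0488) and by edgeR without a filter on low counts (0.00100). Without HG3 replicate 3, the highest of that line, it was 2.40, and PCL12 against HG3 1.82, neither called. In PCL12 the 15.2 CPM came from replicate 2, and without replicates 2 and 3 the difference from HG3 turned from Log2FC 1.00 to -0.47 (adjusted p = 0.415 and 0.902).

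CXCR3, the receptor for the interferon-induced chemokines CXCL9, CXCL10 and CXCL11, ran in the opposite order to CCR7, with MEC2 at the top. MEC2 held 65.0, 67.1 and 43.1 CPM, PCL12 32.0, 22.6 and 24.5 CPM and HG3 12.5, 19.7 and 16.9 CPM, and no ranges overlapped. MEC2 was higher than HG3 (Log2FC 1.84 ± 0.28, adjusted p = 4.3e-05) and higher than PCL12 (Log2FC 1.15 ± 0.27, adjusted p = 0.0211), and PCL12 was not called above HG3 (Log2FC 0.69, adjusted p = 0.125) unless the 2 libraries rich in mitochondrial counts were left out (Log2FC 0.84, adjusted p = 0.0427). The call over PCL12 was lost without MEC2 replicate 1 (adjusted p = 0.116), MEC2 replicate 2 (0.135), PCL12 replicate 2 (0.121) or PCL12 replicate 3 (0.0826), and without PCL12 replicates 2 and 3 together (Log2FC 0.84, adjusted p = 0.550).

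CCR1, a receptor for CCL3 and CCL5, was below 1 CPM in HG3 and above 3 CPM in the other two lines. HG3 held 0.791, 0.619 and 0.526 CPM, MEC2 4.76, 6.78 and 3.56 CPM and PCL12 21.3, 6.17 and 4.78 CPM. HG3 lay below every library of both other lines. MEC2 was 7.72-fold above HG3 (Log2FC 2.95 ± 0.72, adjusted p = 0.00667) and PCL12 16.5-fold (Log2FC 4.04 ± 0.75, adjusted p = 0.000428), and MEC2 and PCL12 were not called apart (Log2FC -1.10, adjusted p = 0.543). The 21.3 CPM of PCL12 replicate 1 was the highest value of CCR1 in any library, and both comparisons of PCL12 turned on it in size. Without that library PCL12 over HG3 was Log2FC 3.07 (adjusted p = 0.00834) and MEC2 over PCL12 -0.11. With that replicate as the one PCL12 pair they were 5.05 (adjusted p = 9.28e-05) and -2.10 (0.204).

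CCR6, the receptor for CCL20 on mature B cells, was highest in MEC2. MEC2 had 1.83, 2.00 and 1.05 CPM, or 150 counts over the 3 unstimulated libraries. HG3 had 0.0440, 0 and 0.0526 CPM, or 4 counts in all, and PCL12 0.0641, 0.464 and 0.139 CPM, or 21 counts. All MEC2 libraries lay above those of the other lines, and no HG3 library held more than 2 counts. The ratio of summed counts, scaled to library size, was 40.8 for MEC2 over HG3 with a 95% counting interval (exact binomial) of 15.6 to 152, and edgeR called it (Log2FC 5.37 ± 1.27, adjusted p = 0.00527). MEC2 over PCL12 was not called by edgeR (Log2FC 2.87, adjusted p = 0.258), but was by DESeq2 (adjusted p = 0.0268) and limma-voom (0.0442). Its size turned on PCL12 replicate 2, without which it was Log2FC 3.95, and without replicates 2 and 3 it was 4.57 (adjusted p = 0.383). Of the 3 unstimulated PCL12 libraries, replicate 1 held the least CCR6 (2 counts). The effect of the same-strand readthrough gene on these counts was not tested.

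CCR10, the receptor for CCL27 and CCL28 of skin and mucosa, known from plasma cells, was lowest in PCL12. HG3 held 19.3, 16.0 and 14.0 CPM, MEC2 11.5, 8.17 and 15.1 CPM and PCL12 3.56, 6.63 and 8.82 CPM. PCL12 lay below HG3 in every library (Log2FC -1.38 ± 0.42, adjusted p = 0.0344), and MEC2 overlapped both. The call was lost without HG3 replicate 1 (adjusted p = 0.0960), HG3 replicate 2 (0.0574), PCL12 replicate 1 (0.168) or PCL12 replicate 2 (0.0849), and without PCL12 replicates 2 and 3 together the value was Log2FC -2.19 (adjusted p = 0.0692). Its opposite-strand neighbour CNTNAP1, looked at after its values were seen, lay in the same direction, with Log2FC -1.92 for PCL12 over HG3 (adjusted p = 0.0559), and the part of such reads in CCR10 was not tested.

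S1PR1, the receptor for sphingosine 1-phosphate, had comparisons that turned on the 2 PCL12 replicates with counts of MEC2 genes. MEC2 held 73.9, 67.6 and 66.0 CPM, HG3 50.0, 13.9 and 30.1 CPM and PCL12 6.70, 20.3 and 33.2 CPM. MEC2 lay above every library of both other lines, and HG3 and PCL12 overlapped. With all libraries edgeR as reported called no comparison, with Log2FC 1.14 for MEC2 over HG3 (adjusted p = 0.204), -0.65 for PCL12 over HG3 (adjusted p = 0.490) and 1.78 for MEC2 over PCL12 (adjusted p = 0.109), of which DESeq2 and limma-voom called the last (0.00503 and 0.0211), as did edgeR on genes with a mean of 1 CPM or more (0.0383). Without a filter on low counts, where edgeR held every gene at the trend of the spread, it called MEC2 over HG3 (adjusted p = 0.00388) and MEC2 over PCL12 (1.63e-06). Without PCL12 replicates 2 and 3 all 3 were called, with Log2FC 1.13 (adjusted p = 0.0369), -2.21 (0.0178) and 3.34 (0.00156), the PCL12 side then resting on 1 library that was assumed to vary like the other groups. The first of these compares the same libraries in both fits and differs by the estimate of the spread. Leaving out PCL12 replicate 3 alone also gave a call for MEC2 over PCL12 (Log2FC 2.35, adjusted p = 0.0324).

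GPR183, the oxysterol receptor EBI2, was not called in any comparison of lines. HG3 held 193, 200 and 303 CPM, MEC2 142, 147 and 167 CPM and PCL12 146, 179 and 200 CPM. MEC2 lay below HG3 in every library, and the 95% confidence interval was -1.23 to 0.01 for MEC2 over HG3, -1.03 to 0.21 for PCL12 over HG3 and -0.82 to 0.42 for MEC2 over PCL12 (Log2FC).

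The position of PCL12 replicates 2 and 3 between PCL12 replicate 1 and MEC2 was described for all receptors. In unstimulated cells both replicates lay between PCL12 replicate 1 and the MEC2 mean for 4 of the 9 receptors (CCR6, CCR10, CXCR4 and S1PR1), where 36.4% of tested genes did so, and after CpG for 3 (CCR7, CXCR4 and S1PR1), where 33.9% did. The count is near the share of all genes, and what the counts of MEC2 genes in these libraries contribute to any 1 of these values was not tested.

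The response to CpG was then compared within each line, to see whether 4 h of TLR9 stimulation altered the receptors. Without pairing of the replicates, no receptor was called at an adjusted p under 0.05 in HG3, MEC2 or PCL12, where the background was 0.00314%, 0.00314% and 0% of tested genes, or over the mean of the lines (0.00941%), by edgeR as reported. Without a filter on low counts unpaired edgeR called CXCR5 in MEC2 (Log2FC 1.61, adjusted p = 0.0285) and over the lines (Log2FC 1.12, adjusted p = 0.000943), in a fit that held every gene at the trend of the spread. At an unadjusted p under 0.05 there were 0 receptors in HG3, 2 in MEC2 (CCR1 and CXCR5), 1 in PCL12 (CCR1) and 4 over the lines (CCR1, CCR7, CXCR3 and CXCR5), where 3.73%, 2.46%, 2.09% and 4.04% of tested genes passed in that order. DESeq2 and limma-voom also called 0 at an adjusted p under 0.05 in each line and over the lines. With the thresholds that the study sets for a DEG (nominal P under 0.01 and |Log2FC| ≥ 1), unpaired edgeR gave 1 receptor, CCR1 in MEC2, against 0.496% of genes in HG3, 0.251% in MEC2 and 0.116% in PCL12. The study used limma, and with the same thresholds limma-voom with paired replicates gave CCR1 and CXCR5 in both MEC2 and PCL12 and no receptor in HG3, against 0.769%, 0.747% and 0.866% of genes. The text of the series pairs 1 stimulated with 1 unstimulated sample in each replicate, and with these pairs as a block in edgeR CCR1 and CXCR5 were called in MEC2 (2 of 9, background 0.333%), CXCR5 in PCL12 (1 of 9, background 0.0471%), no receptor in HG3 (background 0.135%), and CXCR5 and CCR1 over the mean of the lines (2 of 9, background 0.555%). That fit gave every gene the spread of the overall trend, with no spread of its own, so a gene that varies more than the trend gets too small a p. In MEC2 the pairs follow the numbers of the labels, although CpG libraries 1 and 2 correlated better with unstimulated libraries 2 and 1 (0.205 and 0.235) than with their own number (0.0468 and -0.144), and other pairs were not tried. The paired fit in limma-voom, which keeps a spread per gene, called CXCR5 in MEC2 (1 of 9, background 0.0722%) and no receptor in HG3 (0%), in PCL12 (0.00941%) or over the lines (0.1%).

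**Figure D3:**
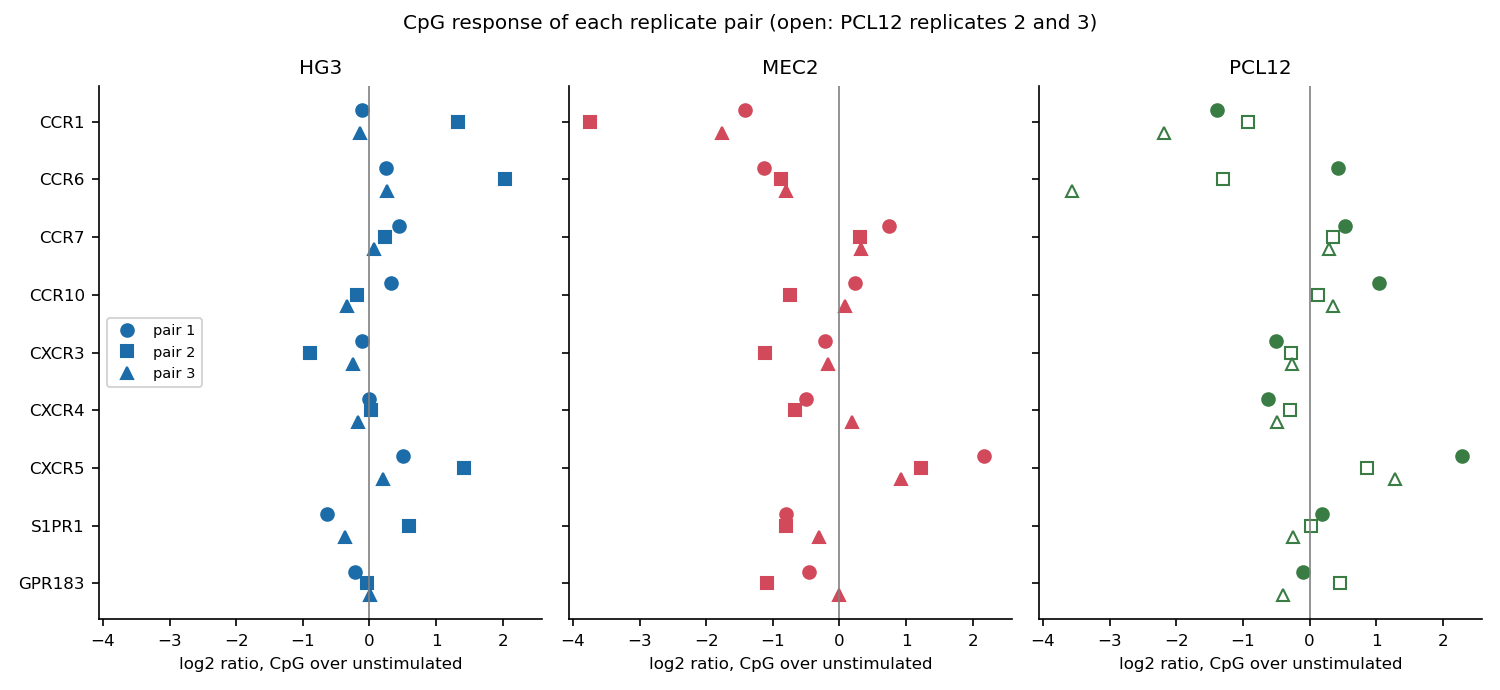
Log2 ratio of CpG over unstimulated CPM for each replicate pair of HG3, MEC2 and PCL12, on 1 shared axis, for the 9 tested receptors. Symbols are pairs 1, 2 and 3, and open symbols are PCL12 replicates 2 and 3. CXCR5 and CCR7 lie right of 0 in all 9 pairs, CXCR3 lies left of 0 in all 9, and CCR1 lies left of 0 in 8.

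Over the 9 pairs, CCR7 and CXCR5 were higher after CpG in every pair and CXCR3 was lower in every pair, 3 of 9 receptors where 0.502% of tested genes moved 1 way in all pairs (1.06% of the 13991 genes that averaged 1 CPM or more). CCR1 was lower in 8 of 9 pairs. These counts are descriptions of direction, and of the 3 receptors CCR7 and CXCR3 had no adjusted p under 0.05 for CpG in any fit.

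CXCR5 had the highest Log2FC over the lines of the 9 receptors. In MEC2 it went from 12.1 to 54.2 CPM in pair 1, from 15.2 to 35.4 CPM in pair 2 and from 6.21 to 11.7 CPM in pair 3. In PCL12 the pairs went from 2.66 to 13.0, from 15.2 to 27.6 and from 4.57 to 11.2 CPM, and in HG3 from 2.48 to 3.53, from 1.70 to 4.63 and from 6.89 to 7.92 CPM. The unstimulated and CpG groups overlapped in every line, since the pairs started from different levels. Unpaired, the Log2FC over the lines was 1.11 ± 0.40 (95% confidence interval 0.27 to 1.95, adjusted p = 1.00, and 0.000943 without a filter on low counts), with 1.60 ± 0.69 for MEC2, 1.21 ± 0.68 for PCL12 and 0.52 ± 0.69 for HG3. Single libraries moved these values, to 0.69 without CpG replicate 2 and 2.26 without unstimulated replicate 2 of PCL12, 1.08 without CpG replicate 1 of MEC2, and 0.13 without CpG replicate 3 and 1.34 without unstimulated replicate 3 of HG3. Without PCL12 replicates 2 and 3 it was 2.29 in PCL12, from 1 pair, and 1.48 over the lines (adjusted p = 1.00 in both). With the replicate block in edgeR the Log2FC was 1.44 in MEC2 (adjusted p = 0.000729), 1.46 in PCL12 (0.00205), 0.67 in HG3 (1.00) and 1.19 over the lines (5.76e-09). With the block in limma-voom the adjusted p was 0.0439 in MEC2, 0.659 in PCL12 and 0.0549 over the lines. In MEC2 the call of the edgeR block was also made without PCL12 replicates 2 and 3 (Log2FC 1.46, adjusted p = 0.00396).

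BCL9L, which shares most of the CXCR5 exon on the other strand and was looked at after its values were seen, was set beside it. In MEC2 BCL9L went from 35.0 to 73.4, from 34.7 to 98.8 and from 35.6 to 37.0 CPM, a Log2FC of 0.99 (adjusted p = 1.00), and with the block it was called there (Log2FC 0.88, adjusted p = 0.0222). In PCL12 BCL9L had log2 ratios of -0.43, -0.08 and 0.25 in pairs 1, 2 and 3, where CXCR5 had 2.29, 0.86 and 1.29. In HG3 BCL9L had -0.09, 1.56 and -0.26, and CXCR5 0.51, 1.43 and 0.20. Both genes were higher in the 3 pairs of MEC2, in HG3 pair 2 and in PCL12 pair 3, and in the other 4 pairs CXCR5 was higher and BCL9L lower. The part of BCL9L reads in the CXCR5 counts was not tested.

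**Figure D4:**
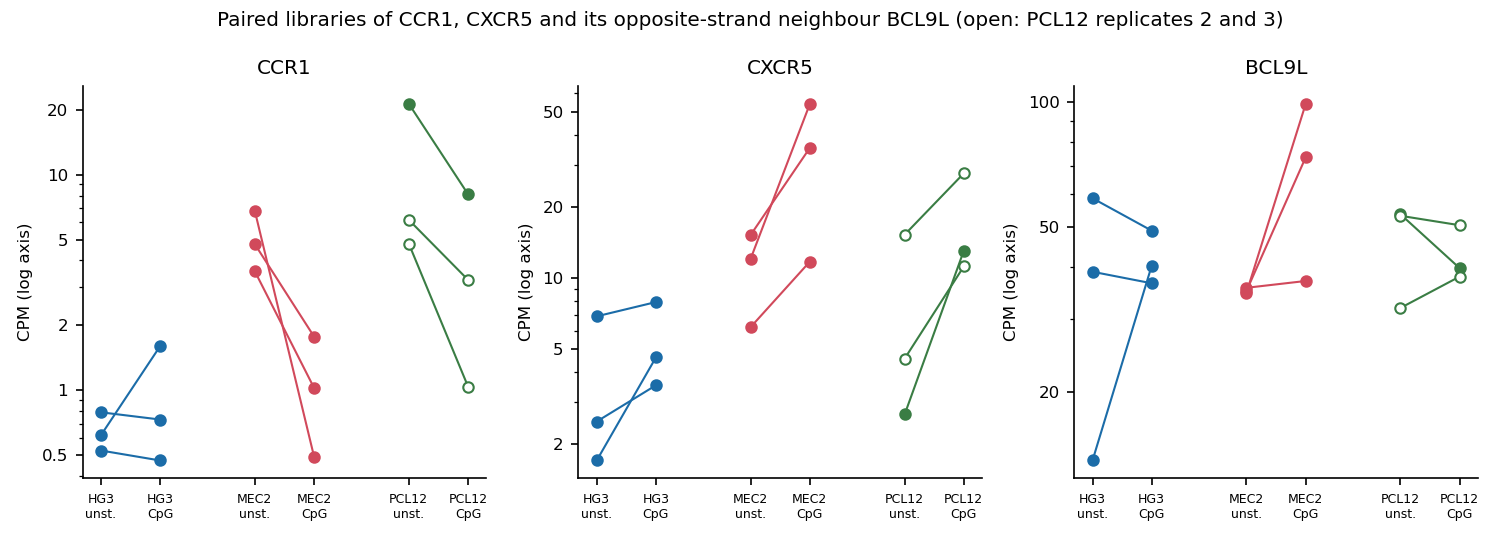
CPM on a log axis of CCR1, CXCR5 and BCL9L in unstimulated (unst.) and CpG libraries, with a line for each replicate pair of HG3, MEC2 and PCL12 and open symbols for PCL12 replicates 2 and 3. CCR1 is lower after CpG in all pairs of MEC2 and PCL12, CXCR5 is higher in all pairs, and BCL9L is higher in 5 of 9 pairs, among them the 3 of MEC2.

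CCR1 was lower after CpG in every pair of MEC2 and PCL12, the 2 lines where its unstimulated level was above 3 CPM. In MEC2 it went from 4.76 to 1.77, from 6.78 to 0.492 and from 3.56 to 1.03 CPM in pairs 1, 2 and 3, and every CpG library lay below every unstimulated one. S1PR1 was the other receptor of MEC2 without overlap, and 4.72% of tested genes had none. In PCL12 CCR1 went from 21.3 to 8.11, from 6.17 to 3.25 and from 4.78 to 1.04 CPM, lower in each pair but with groups that overlapped. In HG3 the ratios were near 0 in 2 pairs and upward in pair 2 (0.619 to 1.60 CPM), at levels near 1 CPM or below. The Log2FC was -2.19 ± 0.69 in MEC2 (95% confidence interval -3.61 to -0.78), -1.37 ± 0.66 in PCL12 (-2.73 to -0.01) and 0.53 ± 0.69 in HG3 (-0.89 to 1.94), each with an adjusted p of 1.00. The PCL12 value depended on its first replicate, and was -0.39 without the unstimulated and -2.34 without the CpG library of that replicate. With the replicate block in edgeR it was called in MEC2 (Log2FC -2.29, adjusted p = 0.00624) and over the lines (Log2FC -1.14, adjusted p = 0.0230), and limma-voom with the block gave adjusted p = 0.233 and 0.430. The lowest value in MEC2, 0.492 CPM, came from the MEC2 library rich in mitochondrial counts. Without that library and the one of HG3 the Log2FC in MEC2 was -1.83 (adjusted p = 1.00).

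CCR7 and CXCR3 differed little but in 1 direction. CCR7 after CpG was 499, 549 and 879 CPM in HG3, 179, 125 and 166 CPM in MEC2 and 259, 256 and 188 CPM in PCL12, with Log2FC 0.36 ± 0.16 over the lines (95% confidence interval 0.02 to 0.69, adjusted p = 1.00). CXCR3 after CpG was 11.6, 10.6 and 14.3 CPM in HG3, 55.8, 31.0 and 38.2 CPM in MEC2 and 22.7, 18.6 and 20.4 CPM in PCL12, with Log2FC -0.42 ± 0.16 over the lines (95% confidence interval -0.75 to -0.10, adjusted p = 1.00). For both receptors the groups overlapped in every line, and the block did not lead to a call (adjusted p = 0.218 for CCR7 and 0.169 for CXCR3 over the lines).

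For the other receptors no direction was shared by all pairs. S1PR1 in MEC2 was 42.5, 38.6 and 53.5 CPM after CpG, below its 3 unstimulated libraries, with a Log2FC of -0.62 whose 95% confidence interval ran from -1.69 to 0.44. CXCR4 was 60.8, 117 and 132 CPM after CpG in HG3, 22.3, 19.2 and 69.6 CPM in MEC2 and 5.02, 13.1 and 18.8 CPM in PCL12, and its mean Log2FC over the lines was -0.22 (95% confidence interval -0.96 to 0.52). GPR183 was 166, 196 and 306 CPM in HG3, 104, 68.9 and 166 CPM in MEC2 and 136, 245 and 151 CPM in PCL12, with a mean of -0.16 (-0.51 to 0.20). CCR10 was 24.1, 14.1 and 11.1 CPM in HG3, 13.5, 4.90 and 16.0 CPM in MEC2 and 7.33, 7.24 and 11.2 CPM in PCL12, with a mean of 0.14 (-0.35 to 0.63). CCR6 stayed low in HG3 (7 counts over the CpG libraries) and PCL12 (11 counts), and in MEC2 it was 0.828, 1.08 and 0.586 CPM, with a Log2FC of -0.96 (-3.04 to 1.12). Within single lines the intervals were wider, and for these 5 receptors they reached past 1 on the log2 scale in at least 1 direction in 1 or more lines.

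Whether the CpG response differed between lines was tested as the difference of the Log2FC. No receptor had an adjusted p under 0.05 for any of the 3 pairs of lines. Of all 31872 tested genes, 0 were called for MEC2 against HG3, 1 for PCL12 against HG3 and 0 for MEC2 against PCL12. With so few calls among all genes, the lack of a call says little about the receptors. CCR1 came nearest, with a response in MEC2 that was 2.72 lower than in HG3 on the log2 scale (Log2FC difference -2.72 ± 0.97, 95% confidence interval -4.72 to -0.73, adjusted p = 1.00), and the block gave an adjusted p of 0.141. For CXCR5 the response in MEC2 minus that in HG3 was 0.76 with the block (adjusted p = 1.00). A response particular to 1 line was thus neither shown nor excluded for any receptor.

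The other genes of migration were taken from 4 lists and tested in the same fit. At an adjusted p under 0.05, 4 of 27 tested other chemoattractant receptors were higher and 3 lower in MEC2 than in HG3, where 9.78% of all tested genes were called. The counts were 3 and 2 in PCL12 against HG3 (9.44%) and 1 and 1 in MEC2 against PCL12 (2.05%). Of 20 tested ligands and lipid-ligand enzymes the counts were 0 and 4, 1 and 6, and 1 and 1 in the same order, of 23 tested signal transducers 4 and 3, 5 and 2, and 0 and 0, and of 5 regulators and partners 2 and 0, 1 and 0, and 0 and 0. In the unpaired fit no gene of the 4 lists was called for CpG in any line. That fit called 0.00314% of tested genes in HG3, 0.00314% in MEC2 and 0% in PCL12. With the DEG thresholds of the study, 1 other chemoattractant receptor was higher in MEC2 (0.251% of genes passed) and 1 in PCL12 (0.116%). No gene of the other lists passed them. Paired fits are not given for these lists.

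Among the ligands of the receptors, HG3 had most of the called genes. CCL20, the ligand of CCR6, was 43.1 to 126 CPM in HG3 against 1.71 to 1.92 CPM in MEC2 (adjusted p = 6.98e-07) and 3.09 to 5.64 CPM in PCL12 (adjusted p = 7.68e-06), the reverse of its receptor in MEC2. CXCL12, the ligand of CXCR4, was 1.52 to 7.95 CPM in HG3 and listed at 0 in the 3 unstimulated PCL12 libraries (adjusted p = 0.000216). CYP7B1, an enzyme of the oxysterol pathway that yields the ligand of GPR183, was 6.59 to 32.1 CPM in HG3 and at most 0.0713 CPM in PCL12 (adjusted p = 0.000578). CCL5, a ligand of CCR1, was higher in MEC2 than in PCL12 (Log2FC 1.19, adjusted p = 0.0424), and CXCL10, a ligand of CXCR3, was lower (Log2FC -4.49, adjusted p = 0.0487). Without PCL12 replicates 2 and 3 neither was called (Log2FC 1.63, adjusted p = 0.0839, and -4.59, adjusted p = 0.203).

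Among other receptors, ACKR3, a scavenger of CXCL12, was lower in MEC2 than in HG3 (Log2FC -2.77, adjusted p = 0.000150), and GPR18, a lipid receptor, was higher (Log2FC 2.21, adjusted p = 0.00372). CCRL2, an atypical receptor, was higher in PCL12 than in HG3 (Log2FC 4.38, adjusted p = 0.00675). S1PR4 was higher and GPR55 lower in MEC2 than in PCL12 (Log2FC 1.62, adjusted p = 0.00454, and -1.63, adjusted p = 0.00991), and without PCL12 replicates 2 and 3 S1PR4 was not called (Log2FC 1.67, adjusted p = 0.0940).

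Of the signaling genes, DOCK8, a guanine nucleotide exchange factor of migrating lymphocytes, and FOXO1, a transcription factor of B-cell homing genes, were higher in MEC2 than in HG3 (Log2FC 1.74, adjusted p = 0.000352, and 2.04, adjusted p = 0.00342), and ARRB1, which uncouples activated receptors, was lower (Log2FC -4.79, adjusted p = 2.07e-05). RGS16, an inhibitor of G protein signals, and CORO1A, an actin-binding protein, were higher in PCL12 than in HG3 (Log2FC 1.79, adjusted p = 3.50e-05, and 1.24, adjusted p = 0.000466).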

How the data were processed

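RNA of 18 samples was sequenced as stranded libraries. The values used are raw counts per gene symbol that the authors deposited. Per the labels, the reads passed FastQC, MultiQC, Trimmomatic, STAR (hg38) and featureCounts. Versions, annotation, strand setting and the handling of multimapping or duplicate reads are not given in the sources used here, and the labels and the paper name different RNA kits. Totals of 20382943 to 67308932 counts set the precision. The receptors and gene lists were chosen with earlier results of these data known.

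Samples were grouped by the labels. Genes with at least 10 counts over all libraries (31872 of 42248 with at least 1) were scaled with TMM and fitted with edgeR 4.0.16 (robust quasi-likelihood, 6 group means, R 4.3.3). Adjusted p is Benjamini-Hochberg over all tested genes, and SE is |Log2FC| over the root of F. Pair ratios carry an offset of 0.5 counts. Alternatives were RLE scaling, 3 other filters, DESeq2 1.42.0, limma-voom (limma 3.58.1), a replicate block, and left-out libraries, and the block without PCL12 replicates 2 and 3 was chosen after seeing the data. The fits were run on simulated counts with the same spread for every gene and no pair effect. These cannot show how a fit treats genes of unlike spread.

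Genes named from the other lists were, per comparison, the 3 higher and 3 lower with the smallest p past an adjusted p of 0.05 and no overlap between groups, and any other gene is marked. The description of the series pairs the samples of a replicate within a line. Deviations from the group means of same-numbered libraries correlated at 0.196, 0.187 and 0.243 for PCL12, at 0.117, 0.0652 and 0.193 for HG3, and at 0.0468, -0.144 and 0.272 for MEC2, where CpG library 1 correlated best with unstimulated library 2 (0.205) and 2 with 1 (0.235). These are correlations across genes, which are not independent.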

Additional observations from a re-analysis of the deposited data

How the results depend on the processing

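Of 1146 recomputed Log2FC values of single receptors, 1062 stayed in direction and on their side of the threshold, 29 gained a call, 14 lost one and 41 changed sign. The count of called receptors, 4 for unstimulated MEC2 against HG3, was 7 without a filter (8.83% of all genes called), 6 with DESeq2 (13.9%), 5 with the replicate block (10.2%), 5 without PCL12 replicates 2 and 3 (9.01%) and 3 with a mean of 1 CPM or more (22.4%). The filter at 1 CPM removed CCR6 from testing. For PCL12 against HG3 it was 4, and between 2 and 4 with 1 library left out, 3 without PCL12 replicates 2 and 3 (4.35%; CCR1, CXCR4 and S1PR1, with CCR7 and CCR10 lost), and 5 without the 2 libraries rich in mitochondrial counts (9.97%; CXCR3 gained, adjusted p = 0.0427). For MEC2 against PCL12 it was 1, and 3 without a filter (3.2%), 2 with a mean of 1 CPM or more (6.04%), 3 with DESeq2 (4.43%), 3 with limma-voom (3.1%), 2 with the replicate block (2.39%), and between 0 and 1 with 1 library left out. The block across lines rests on a shared number only. For CpG, counts of 0 became 1 in MEC2 (0.104%) and 1 over the lines (0.121%) without a filter (CXCR5 in both), 2 in MEC2 (0.333%), 1 in PCL12 (0.0471%) and 2 over the lines (0.555%) with the replicate block, 1 in MEC2 with the block in limma-voom (0.0722%), and 2 in MEC2 with the block without PCL12 replicates 2 and 3 (0.23%). The block for CpG and the fit without a filter held every gene at the trend of the spread (median total degrees of freedom 191232 and 506976, against 26.1 in the fit as reported and 16.7 for the block in limma-voom), and the block changed no call of a receptor other than those given. The cause of the other changes was not tested.

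Sign changes were values close to 0 or with wide errors. Without PCL12 replicates 2 and 3 the Log2FC was 0.618 for CCR6 after CpG in PCL12 and 0.184 over the lines, 0.186 for S1PR1 and -0.0995 for GPR183 after CpG in PCL12, 0.0150 and 0.00265 for CCR10 after CpG in HG3 and MEC2, -0.468 for CXCR5 in unstimulated PCL12 against HG3, and 0.0345 for GPR183 in MEC2 against PCL12. CCR10 after CpG was 0.0133 in HG3 and 0.00150 in MEC2 without a filter, and 0.0126 in HG3 with filterByExpr. Without the 2 libraries rich in mitochondrial counts, CCR10 and CXCR4 after CpG in MEC2 were 0.348 and 0.155. GPR183 after CpG in PCL12 was -0.0845 with limma-voom, -0.0185 with the replicate block and -0.0382 with the block in limma-voom. With 1 library left out, the CpG Log2FC in HG3 ran from -0.0989 to 0.843 for CCR1, -0.0887 to 0.620 for CCR7, -0.385 to 0.215 for CCR10, -0.341 to 0.237 for CXCR4, -0.631 to 0.227 for S1PR1 and -0.357 to 0.180 for GPR183. In MEC2 it ran from -0.335 to 0.355 for CCR10 and -0.988 to 0.247 for CXCR4. In PCL12 it ran from -0.891 to 0.0314 for CXCR4, -0.511 to 0.453 for S1PR1 and -0.287 to 0.174 for GPR183. CXCR5 in unstimulated PCL12 against HG3 ran from -0.0277 to 1.82.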

Other observations

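The replicate number went with the level of CXCR4 across lines and treatments, although the labels say nothing of what a number shares between lines. CXCR4 was highest in replicate 3 in 6 of 6 groups. That replicate was highest in every group for 0.844% of tested genes and 1.76% of those averaging 1 CPM or more. None of the other 8 tested receptors had 1 number highest in all 6 groups, but GPR183 was highest in replicate 3 and CCR6 in replicate 2 in 5 of 6. In the second CpG library of MEC2, which was rich in mitochondrial counts, CCR1 (0.492 CPM), CCR7 (125 CPM), CCR10 (4.90 CPM), CXCR3 (31.0 CPM), CXCR4 (19.2 CPM), S1PR1 (38.6 CPM) and GPR183 (68.9 CPM) were the lowest of the 3 CpG libraries of that line, 7 of the 9 tested receptors, where 21.2% of all tested genes and 35.4% of those averaging 1 CPM or more were lowest in that library, and their relation to the mitochondrial share was not tested.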
